A study of Mus musculus with 15 samples.

Results

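The levels of 10 insulin-signalling genes were followed in mouse quadriceps, from the receptors at the cell surface to the glucose transporter at the end of the route: Insr, Igf1r, Irs1, Irs2, Pik3r1, Akt1, Akt2, Tbc1d1, Tbc1d4 and Slc2a4. They are the rows whose Ensembl gene identifier, without its version, carries one of these symbols in the GENCODE M21 annotation of mouse, and all 10 were found, each once, among the 50686 genes of the deposited table. All 10 exceeded the level needed for testing, a mean of 10 normalized counts over the 15 libraries, as did 13499 genes in all.

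The 15 libraries come from adult C57BL/6 offspring killed at 10 months of age, 3 in each of 5 groups that differ only in what their parents were given. The control offspring had parents on normal chow and a mother whose running wheel was locked in pregnancy. The maternal high-fat groups had mothers that ate a diet with 60% fat for 6 weeks from 8 weeks of age before they were mated with lean males, and the paternal high-fat groups had fathers fed in the same way and mated with lean females. In each of these, the pregnant female had either a locked wheel (sedentary) or a free one (exercised), so that the exercise was always the mother's. All offspring, controls included, were kept on chow without exercise from the day after birth, and the same 3 control libraries serve both the maternal and the paternal study, so the comparisons with control are not independent of each other. The labels do not say which offspring were littermates, nor their sex. Xist had 826 to 3578 reads in every library, and none of 4 Y-linked genes had more than 5. The p-values below treat each mouse as independent, and they could be too small where mice of a group were littermates.

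Insulin binds its receptor, which phosphorylates the insulin receptor substrates IRS1 and IRS2. These recruit phosphoinositide 3-kinase and, through it, the kinase AKT, which phosphorylates the Rab GTPase-activating proteins TBC1D1 and TBC1D4 and so lets vesicles that carry the glucose transporter GLUT4 reach the surface of the muscle fibre. Skeletal muscle takes up much of the glucose cleared after a meal, and contraction reaches the same TBC1D proteins through AMPK. Much of this route is switched by phosphorylation, which transcript levels do not show.

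The promoters of Irs1 and Irs2 are printed because these are the substrates of the receptor, and Irs1 is the member with the largest difference from control below while Irs2 overlapped with control in every group. Both lie on the minus strand, and the 250 bases before the RefSeq start of each (assembly GRCm38.p6) are given 5′ to 3′ in the direction of transcription, for Irs1 from chr1:82291440-82291689 and for Irs2 from chr8:11008930-11009179. The capitals mark the E-box CACGTG and the letters TGTTTTG, the core of the insulin response element that FoxO factors are known to bind.
Irs1: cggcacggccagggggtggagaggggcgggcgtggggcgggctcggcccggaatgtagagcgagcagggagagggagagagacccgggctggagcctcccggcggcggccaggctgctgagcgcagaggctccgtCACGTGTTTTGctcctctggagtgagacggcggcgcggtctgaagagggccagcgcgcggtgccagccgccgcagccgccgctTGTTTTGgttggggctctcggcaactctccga
Irs2: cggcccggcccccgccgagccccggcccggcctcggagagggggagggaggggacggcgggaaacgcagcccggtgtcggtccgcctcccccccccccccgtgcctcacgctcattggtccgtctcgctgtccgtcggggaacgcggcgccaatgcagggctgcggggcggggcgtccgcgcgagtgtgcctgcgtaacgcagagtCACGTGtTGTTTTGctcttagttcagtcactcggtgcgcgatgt

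In both promoters the E-box is followed by the same TTTTG. In Irs1 the E-box begins 115 bases before the start and overlaps a TGTTTTG that begins 111 bases before it, with a second TGTTTTG 32 bases before the start. In Irs2 the E-box begins 44 bases and the TGTTTTG 37 bases before the start. Searched on both strands, CACGTG was present in 6.02% and TGTTTTG in 5.56% of 32851 mouse promoter windows of this length. CACGTG followed by TTTTG within 4 bases, a pattern chosen after both sequences had been read, was present in 22 windows (0.067%). RefSeq promoters were matched for 8 of the 10 members, and neither motif was found in the windows of the other 6, Igf1r, Pik3r1, Akt1, Akt2, Tbc1d1 and Tbc1d4. The FoxO consensus TGTTTAC, present in 3.17% of all windows, occurred once among the members, in Akt1 at 161 bases before the start. These are matches of letters and say nothing about which factors were bound.

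Library totals ran from 18457663 to 26981745 reads. The quadriceps label was checked on fibre genes: fast fibre markers summed to between 178958 and 253609 CPM (counts scaled to the library total) and slow fibre markers to between 1448 and 7607. Hepatocyte markers were uneven. A list of 38 of them summed to 4903 CPM in maternal high-fat sedentary library 2, 587 in library 3 of that group, 318 in paternal high-fat sedentary library 1 and 227 in control library 2, against 22.9 to 55.2 in the other 11, where between 13 and 35 of the 38 had a read. Control library 2 and maternal high-fat sedentary library 3 also had the fewest genes detected, 17699 and 17581 against 19062 to 20771. The members' differences from control are given with these libraries and, after the last member, without them. Markers of Schwann cells summed to 144, 230 and 339 CPM in the controls and to between 117 and 203 in the other groups, and their median log2 difference from control was -0.32 (maternal sedentary), -0.78 (maternal exercised), -0.62 (paternal sedentary) and -0.70 (paternal exercised). Erythrocyte markers had -1.09 in the paternal sedentary group and -0.25 to 0.14 in the others, macrophage markers had -0.27 to 0.57, adipocyte markers -0.76 to -0.21 and endothelial markers -0.12 to 0.01. The 12 slow fibre markers all had higher means than control in the maternal sedentary (median 0.54), maternal exercised (0.15) and paternal sedentary (0.47) groups. All had lower means in the paternal exercised group (-0.36), and between paternal exercised and paternal sedentary all 12 were lower (-1.05). Single libraries weigh on these directions. The slow fibre markers summed to 1448, 5270 and 4911 CPM in the paternal exercised libraries and to 1937, 5200 and 7349 in the controls. The part of these markers in the values below was not tested. In such bulk tissue fewer cells of a type and less RNA per cell cannot be told apart.

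Divided by exon length in kilobases, the levels of the 10 genes spanned a wide range. Slc2a4, which encodes GLUT4, was highest with a mean of 3932 normalized counts per kilobase over all libraries. Akt2, the AKT isoform most tied to glucose uptake, followed at 883, and Tbc1d1 at 531 and Akt1 at 373 came next. Irs2 (239), Tbc1d4 (236) and Insr (200) lay close together. Irs1 (102), Pik3r1 (75.5) and Igf1r (57.6) were the lowest. By mean normalized count, without the division by length, even the lowest of them, Pik3r1, lay at the 76.9th percentile of tested genes, and counting error at the lowest library of any member was at most 4.9%. After the group means were removed, Irs2 varied most from mouse to mouse (residual SD 0.50 on the log2 scale) and Akt2 least (0.18).

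**Figure D1:**
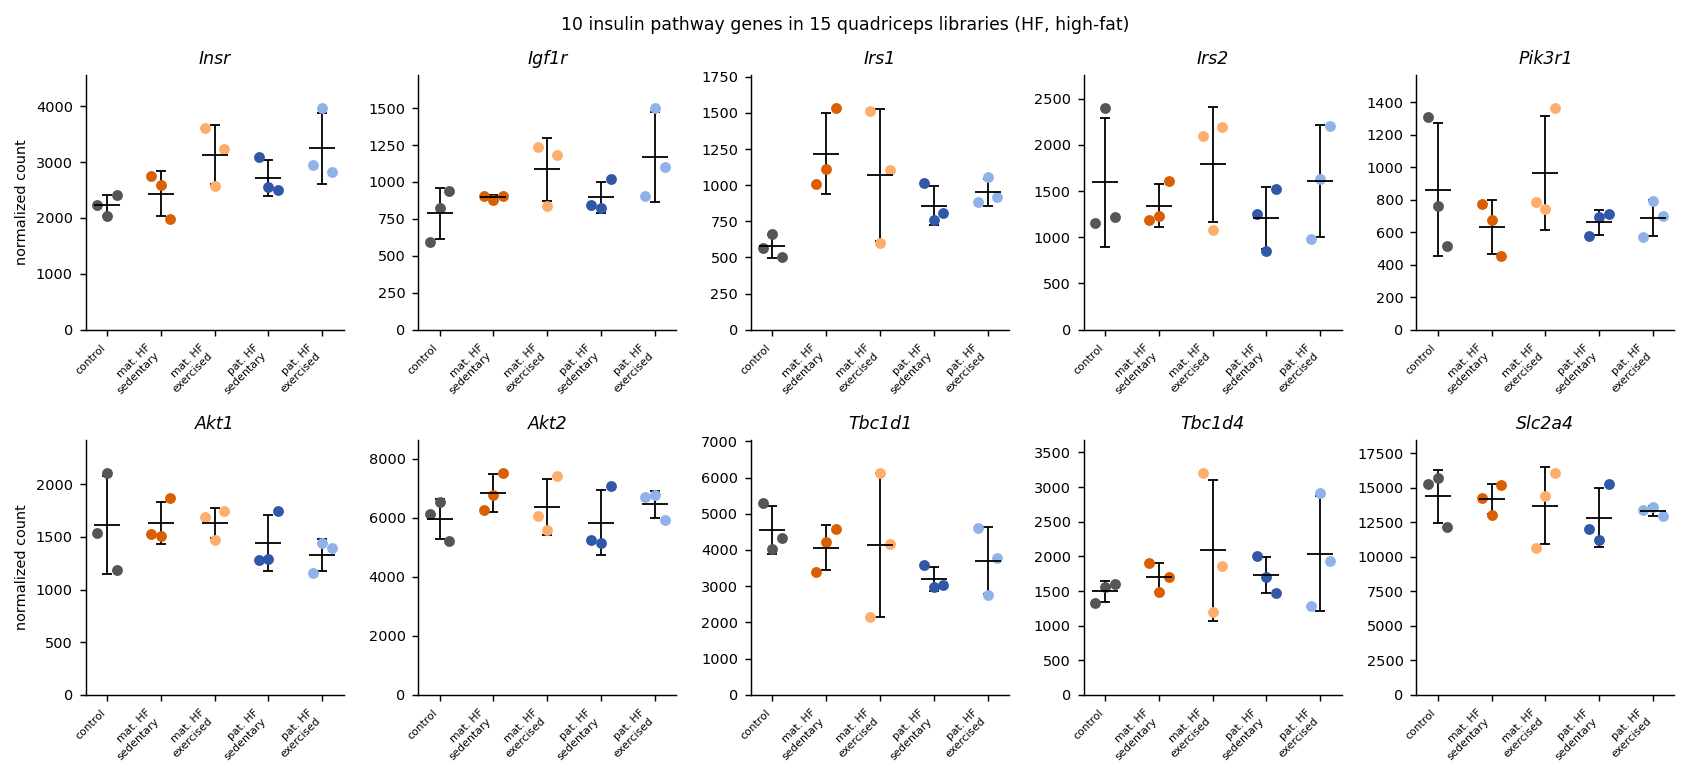
Normalized counts of the 10 genes (vertical axes, from 0) in the 15 libraries, grouped along the horizontal axis; coloured points are libraries, horizontal bars the group means and whiskers the SD, n = 3. Irs1 is the gene whose controls (504 to 665) lie lowest against the other groups, while for Slc2a4 the groups lie on each other.

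With limma on log2(normalized count + 1) and Benjamini-Hochberg adjustment over 13499 genes, none of the 10 members passed an adjusted p of 0.05 in any of the 7 comparisons of 2 groups, in the difference between the maternal and paternal exercise effects, or in the test of any difference over the 5 groups. In these 9 tests 0% of all genes passed as well. At an unadjusted p under 0.05, Irs1 was the only member in the maternal high-fat sedentary comparison with control, where 4.04% of all genes reached it. Irs1, Insr and Igf1r reached it in the maternal exercised (all genes 8.76%) and the paternal exercised (13.7%) comparison with control, and Irs1 alone in the paternal sedentary one (2.87%). Insr reached it between maternal exercised and maternal sedentary (9.54%). No member did so between paternal exercised and paternal sedentary (3.76%), between the sedentary groups of the maternal and paternal studies (4.35%), or in the difference of the exercise effects (1.8%). In the test over the 5 groups, where 6.71% of all genes reached it, Irs1 and Insr did so, both with a limma adjusted p of 0.715.

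Irs1 (mm10 chr1:82233101-82291416, minus strand), an adaptor that the activated receptor phosphorylates in muscle, was lowest in the control mice. The control libraries held 562, 665 and 504 normalized counts (577 ± 81.5, SD, n = 3). The maternal high-fat sedentary libraries held 1010, 1109 and 1536 (1218 ± 279), and the maternal high-fat exercised libraries 1512, 597 and 1105 (1072 ± 458). The paternal high-fat sedentary libraries held 1013, 756 and 804 (858 ± 137), and the paternal high-fat exercised libraries 881, 1055 and 916 (951 ± 92.2). Thus 11 of the 12 libraries from high-fat parents lay above every control, and the exception, maternal exercised library 2 at 597, lay within the control range. At least 11 of 12 lay above every control for 120 of the 13499 genes tested (0.889%).

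The log2 difference from control was 1.06 ± 0.26 (SE, 95% interval 0.51 to 1.61) in the maternal sedentary group, a fold of 2.09, with an unadjusted p of 0.00092 and a limma adjusted p of 0.688. The groups did not overlap, as for 4.44% of all genes in the higher and 3.58% in the lower direction. It was 0.80 ± 0.26 in the maternal exercised group (adjusted p = 0.566), 0.57 ± 0.26 in the paternal sedentary group (adjusted p = 0.920) and 0.73 ± 0.26 in the paternal exercised group (adjusted p = 0.296), each by limma. In both paternal groups Irs1 did not overlap with control, as for 2.64% (sedentary) and 11.7% (exercised) of all genes in the higher direction, with 8.7% in the lower direction for the exercised group. Control and paternal sedentary were the only neighbouring groups of any member, ordered by mean, whose libraries did not overlap. Among the groups from high-fat parents, Irs1 did not separate: the exercised minus sedentary difference was -0.26 (95% interval -0.81 to 0.29) for mothers and 0.16 (-0.39 to 0.71) for fathers, and maternal minus paternal sedentary was 0.49 (-0.06 to 1.04).

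One tool of those run called Irs1. DESeq2 on the recovered reads gave the maternal sedentary difference as 1.08 with an adjusted p of 0.0357, while edgeR's quasi-likelihood test and limma voom did not call it. Over 32 alternatives the adjusted p ran from 0.0357 to 1.00 and the difference from 0.82 to 1.19. The smallest of these differences had a hepatocyte score as a covariate, and without the 4 libraries high in hepatocyte markers it was 0.92. That value rests on maternal sedentary library 1 alone (1010 Irs1 counts, hepatocyte markers 29.3 CPM), which is assumed to vary like the other groups. In the maternal exercised group the value rested more on single mice, at 0.50 without library 1 and 1.17 without library 2.

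A code that opens the sample titles, whose meaning the labels do not give, divides the groups unevenly. The 3 maternal sedentary libraries share the code F7 with maternal exercised library 3 and with no control, so for them the code and the group cannot be told apart from control. Under code F1 the controls held 562 and 665 Irs1 counts and paternal exercised library 1 held 881. Under F6 control library 3 held 504 and paternal exercised library 3 held 916. With the code as a covariate the paternal exercised difference was 0.67 and the paternal sedentary one 0.40. Control libraries 1 and 2 also share the next part of the title, and so do maternal sedentary libraries 2 and 3. The labels do not say whether such mice were littermates.

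Irs2 (chr8:10984681-11008458, minus strand), the other substrate, did not follow Irs1. The control libraries held 1156, 2401 and 1224 normalized counts (1594 ± 700), so that control library 2 was the highest of all 15. The maternal sedentary libraries held 1191, 1233 and 1606 (1343 ± 228) and the maternal exercised libraries 2100, 1076 and 2193 (1790 ± 620). The paternal sedentary libraries held 1252, 854 and 1521 (1209 ± 336) and the paternal exercised libraries 986, 1631 and 2207 (1608 ± 611). All groups overlapped, and none of the 12 libraries from high-fat parents lay above every control. The log2 difference from control ran from -0.35 (paternal sedentary, 95% interval -1.09 to 0.38) to 0.18 (maternal exercised, -0.55 to 0.91), and none passed (limma adjusted p 0.875 to 1.00). Exercised minus sedentary was 0.36 (-0.38 to 1.09) for mothers and 0.38 (-0.36 to 1.1) for fathers.

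The balance of the substrates therefore differed between libraries. Per exon length, Irs1 stood to Irs2 in a ratio of 0.336, 0.191 and 0.285 in the controls and of 0.586, 0.622 and 0.661 in the maternal sedentary libraries. The ratio was 0.498, 0.384 and 0.348 in the maternal exercised libraries, where all 3 lay below the maternal sedentary ones. In the paternal libraries it was 0.560, 0.612 and 0.366 (sedentary) and 0.617, 0.447 and 0.287 (exercised). Irs1 stayed below Irs2 per length in all 15 libraries, and the ratio carries the spread of Irs2 in each group. Across the 15 libraries Irs1 and Irs2 had a Pearson r of 0.37 (Spearman rho 0.43), and 0.66 after group means were removed. This and the correlations that follow are descriptions over 15 libraries that share the series' processing and differ in depth and RNA composition, and no p is given.

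**Figure D2:**
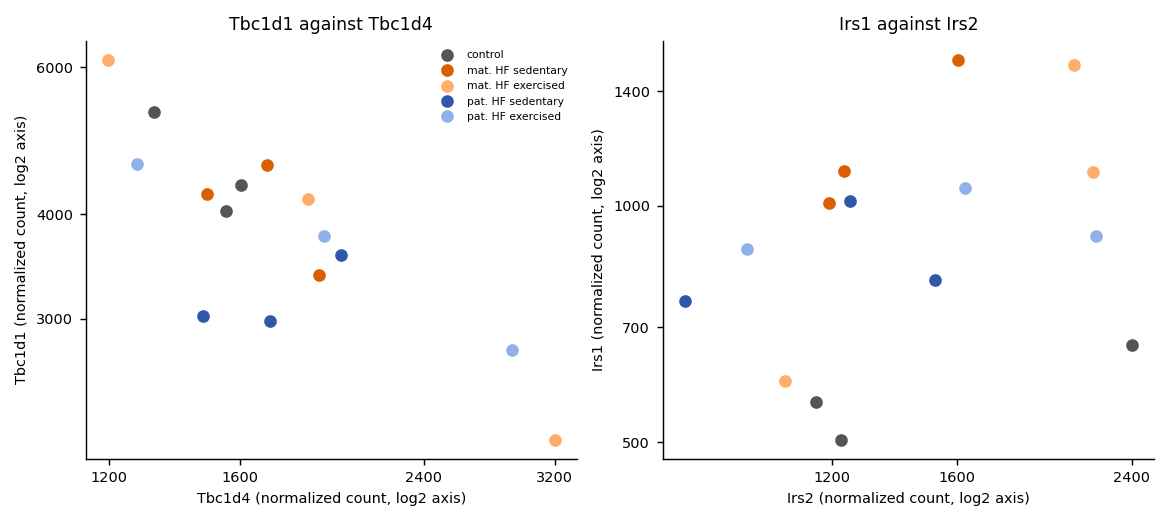
Each point is a library, coloured by group, with normalized counts on log2-spaced axes: Tbc1d1 against Tbc1d4 on the left, Irs1 against Irs2 on the right. Tbc1d1 was low where Tbc1d4 was high (Pearson r -0.82), while at a like level of Irs2 the controls had less Irs1 than the other groups, apart from maternal exercised library 2.

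The genes whose levels ran most like each substrate differed. For Irs1, among 10388 genes with a mean of at least 50, they were Nuak1, an AMPK-related kinase (r = 0.88, rho 0.86), Sh3bp5 (r = 0.84) and Dhrs3, a retinal reductase (r = 0.83). For Irs2 they were Sik1, a salt-inducible kinase (r = 0.94, rho 0.91), Polr3d, a subunit of RNA polymerase III (r = 0.90), and Junb, an immediate early transcription factor (r = 0.84). With group means removed, r was 0.85 for Nuak1, 0.69 for Sh3bp5 and 0.71 for Dhrs3, and 0.94 for Sik1, 0.93 for Polr3d and 0.86 for Junb.

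At the receptors, Insr (chr8:3122061-3279617, minus strand) encodes the insulin receptor, and Igf1r (chr7:67952827-68233668, plus strand) its relative for insulin-like growth factor 1. Insr held 2237, 2033 and 2413 normalized counts in the controls (2228 ± 190). It held 2745, 2583 and 1977 in the maternal sedentary libraries (2435 ± 405) and 3603, 2563 and 3236 in the maternal exercised libraries (3134 ± 527). The paternal sedentary libraries held 3092, 2555 and 2502 (2716 ± 326) and the paternal exercised libraries 2948, 3971 and 2815 (3245 ± 632). Again 11 of 12 libraries from high-fat parents lay above every control, and maternal sedentary library 3, at 1977, lay below every control. The exercised groups had the highest means in both studies.

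Insr was 0.48 ± 0.17 above control in the maternal exercised group (95% interval 0.13 to 0.83) and 0.53 ± 0.17 in the paternal exercised group (0.17 to 0.88), with limma adjusted p values of 0.566 and 0.285. Both groups and the paternal sedentary group (0.28, adjusted p = 0.920) did not overlap with control. In the maternal exercised comparison 5.54% of all genes were higher and 4.72% lower without overlap. Insr was 0.36 higher in exercised than sedentary offspring of high-fat mothers (0.01 to 0.72, adjusted p = 0.516) and 0.25 higher in those of high-fat fathers (-0.11 to 0.60). The test of the difference between these exercise effects gave 0.12 (-0.38 to 0.62). Without the 4 libraries high in hepatocyte markers the maternal one was 0.18.

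Insr moved with a property of the libraries. Libraries differed in how much their longest transcripts stood above their shortest, which was summarised as a transcript length index, the mean log2 deviation of the 1349 genes with the most exon sequence minus that of the tenth with the least. Insr is a long transcript, with 13746 bases of exon, and had a Pearson r of 0.87 with this index (rho 0.84, 0.77 without the 2 libraries farthest from its median, 0.82 with group means removed). A fit with the index as a covariate was added once the values had been seen. In it the Insr difference from control was 0.21 in both exercised groups, and that between maternal exercised and maternal sedentary was -0.01. Insr is itself among the 1349 genes. The index was also higher in the maternal exercised (0.19, -0.02 and 0.15) than in the maternal sedentary libraries (-0.08, -0.15 and -0.35). Such a fit can therefore also take out a difference between these groups, and the index and the group cannot be told apart. The index was -0.35 in maternal sedentary library 3 and -0.32 in control library 2, the libraries with the lowest Insr and the fewest genes detected. Igf1r, with 16791 bases of exon, had r = 0.44 with the index (0.11 with group means removed). Irs1, with 9144 bases of exon, had r = 0.08 with the index, and its maternal sedentary difference was 1.08 with the covariate. With the hepatocyte score Irs1 had r = 0.49 (rho 0.59, 0.44 with group means removed).

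**Figure D3:**
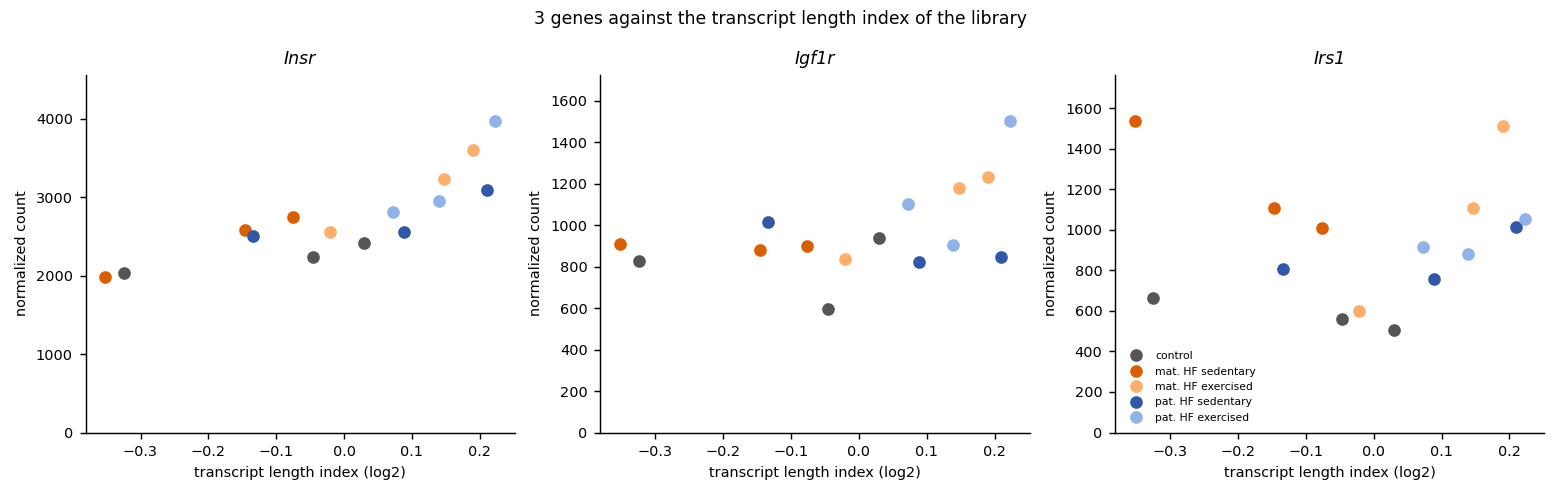
Normalized counts of Insr, Igf1r and Irs1 (vertical axes, from 0) against the transcript length index of the library (horizontal axis, log2); points are libraries coloured by group. Insr climbed with the index from 1977 to 3971, whereas Irs1 reached 1536 at the lowest index and 1512 near the highest.

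Igf1r held 596, 826 and 939 normalized counts in the controls (787 ± 175). The maternal sedentary libraries were nearly identical at 902, 881 and 908 (897 ± 14.2), and the maternal exercised libraries held 1234, 839 and 1181 (1084 ± 214). The paternal sedentary libraries held 846, 823 and 1017 (895 ± 106) and the paternal exercised libraries 906, 1502 and 1104 (1171 ± 303). Every group overlapped with control, and 5 of 12 libraries from high-fat parents lay above every control. As for Insr, the exercised groups had the highest means, 0.47 ± 0.20 (maternal, adjusted p = 0.566) and 0.57 ± 0.20 (paternal, adjusted p = 0.293) above control by limma. These values rested on single mice: the maternal one was 0.28 without control library 1 and the paternal one 0.37 without paternal exercised library 2. The paternal one was 0.31 with the title code as a covariate. Per length, Insr stood above Igf1r in all 15 libraries, by 2.66 to 4.58 times.

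Pik3r1 (chr13:101680563-101768217, minus strand) encodes the p85α, p55α and p50α regulatory subunits of phosphoinositide 3-kinase. It held 1311, 761 and 514 normalized counts in the controls and 773, 673 and 451 in the maternal sedentary libraries, against 784, 742 and 1364 in the maternal exercised libraries. Single mice set its spread: control library 1 and maternal exercised library 3 stood apart from the other 13, of which the highest held 790. The paternal libraries lay close together at 574, 694 and 714 (sedentary) and 572, 790 and 700 (exercised). Its largest difference was between maternal exercised and maternal sedentary, 0.59 (95% interval -0.06 to 1.23, limma adjusted p = 0.522). That value was 0.31 without maternal exercised library 3, 0.26 without the libraries high in hepatocyte markers and 1.14 with the title code as a covariate.

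Akt1 (chr12:112653821-112674884, minus strand) and Akt2 (chr7:27591552-27640826, plus strand) encode the kinases that carry the signal onward, Akt2 being the main isoform for glucose transport. Akt1 held 1539, 2104 and 1188 normalized counts in the controls, 1525, 1506 and 1864 in the maternal sedentary and 1683, 1473 and 1746 in the maternal exercised libraries. In the paternal libraries it held 1284, 1286 and 1749 (sedentary) and 1157, 1439 and 1389 (exercised). Akt1 overlapped with control in every group. Its exercised and sedentary libraries overlapped in both studies, as did the sedentary groups of the maternal and paternal studies. All maternal libraries (lowest 1473) lay above all paternal exercised ones (highest 1439). This split is not among the comparisons made, its share over all genes was not counted, and the difference was not tested. The largest difference of Akt1 from control was -0.24 in the paternal exercised group (-0.64 to 0.15, limma adjusted p = 0.537).

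Akt2 held 6133, 6548 and 5225 in the controls, 6256, 6764 and 7520 in the maternal sedentary and 6078, 5600 and 7416 in the maternal exercised libraries. The paternal libraries held 5263, 5167 and 7098 (sedentary) and 6697, 6766 and 5934 (exercised). It was the steadiest member: the highest library was 1.46 times the lowest, and the largest difference from control was 0.20 in the maternal sedentary group (-0.11 to 0.51, limma adjusted p = 1.00). Per length Akt2 exceeded Akt1 by 1.79 to 3.33 times in the 15 libraries, with a median of 2.36. Akt1 and Akt2 had r = 0.62 with each other.

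Tbc1d1 (chr5:64156305-64351486, plus strand) and Tbc1d4 (also called AS160, chr14:101442360-101609191, minus strand) encode the Rab GTPase-activating proteins that hold GLUT4 vesicles back until they are phosphorylated. Tbc1d1 held 5294, 4033 and 4333 normalized counts in the controls (4553 ± 659). It held 3383, 4233 and 4576 in the maternal sedentary libraries (4064 ± 614) and 2152, 6121 and 4171 in the maternal exercised libraries (4148 ± 1985). The maternal exercised group thus held both the lowest and the highest library of the series. In the paternal libraries it was 3574, 2982 and 3021 (sedentary, 3192 ± 331) and 4595, 2751 and 3772 (exercised, 3706 ± 923).

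The paternal sedentary libraries lay below every control, as did 3.05% of all genes in that comparison. The log2 difference was -0.51 ± 0.28 (95% interval -1.1 to 0.10, limma adjusted p = 0.920), a fold of 0.704. With the title code as a covariate it turned to 0.16. Of these libraries 1 and 2 share a code with paternal exercised library 2 alone (2751) and library 3 has a code of its own, so no code holds both this group and control. The mean of Tbc1d1 was below control in all 4 groups from high-fat parents, and 7 of their 12 libraries lay below every control. The share of all genes with such a count was not taken. The 4 differences share the same controls, and each 95% interval included 0.

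Tbc1d4 was the mirror of Tbc1d1 from mouse to mouse. It held 1324, 1552 and 1605 normalized counts in the controls (1494 ± 149), 1903, 1490 and 1698 in the maternal sedentary libraries (1697 ± 207) and 3201, 1197 and 1859 in the maternal exercised libraries (2086 ± 1021). In the paternal libraries it held 1999, 1709 and 1478 (sedentary, 1729 ± 262) and 1277, 2915 and 1926 (exercised, 2039 ± 825). Maternal exercised library 1, lowest in Tbc1d1, was highest in Tbc1d4, and library 2 of that group was the reverse. Its differences from control ran from 0.18 to 0.37, with intervals that all included 0 and limma adjusted p values from 0.566 to 1.00.

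Over the 15 libraries Tbc1d1 and Tbc1d4 had a Pearson r of -0.82 (rho -0.76), the most negative of the 45 pairs of members. It was -0.65 without the 2 libraries farthest from the median of Tbc1d1 and -0.88 with group means removed. Per length, Tbc1d1 ranged from 0.697 of Tbc1d4 in maternal exercised library 1 to 5.30 times it in library 2, and it exceeded Tbc1d4 in 13 of 15 libraries. In rodents TBC1D1 is known to be richer in fast glycolytic muscle and TBC1D4 in slow oxidative muscle. A score over slow fibre markers had r = -0.40 with Tbc1d1 and 0.42 with Tbc1d4. These were -0.20 and 0.08 without the 2 libraries farthest from the median of the score, and -0.47 and 0.59 with group means removed. The part of the score in the relation was not tested. The genes most like Tbc1d1 were Scd1, a fatty acid desaturase (r = 0.86), Hif1an, which hydroxylates HIF1A (r = 0.83), and Capn3, the muscle calpain (r = 0.83). Without the 2 libraries farthest from the median of Tbc1d1 they had r = 0.88, 0.70 and 0.79.

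Slc2a4 (chr11:69942539-69948188, minus strand), the gene of GLUT4, did not differ detectably between any groups. It held 15248, 15718 and 12160 normalized counts in the controls (14375 ± 1933), 14236, 13046 and 15225 in the maternal sedentary libraries (14169 ± 1091) and 10616, 14390 and 16051 in the maternal exercised libraries (13685 ± 2785). In the paternal libraries it held 12023, 11204 and 15267 (sedentary, 12832 ± 2149) and 13376, 13611 and 12956 (exercised, 13315 ± 332). The group means followed one another with overlap throughout. Its log2 difference from control was -0.01 (95% interval -0.35 to 0.32) in the maternal sedentary, -0.08 (-0.42 to 0.25) in the maternal exercised, -0.17 (-0.50 to 0.17) in the paternal sedentary and -0.10 (-0.44 to 0.23) in the paternal exercised group. Exercised minus sedentary was -0.07 (-0.40 to 0.27) for mothers and 0.07 (-0.27 to 0.40) for fathers. A change by a factor of 1.5 in either direction, 0.58 on the log2 scale, lies outside each of these intervals. The genes most like Slc2a4 were Pias3, a SUMO ligase (r = 0.90), Mical2 (r = 0.89) and Sesn2, a sestrin (r = 0.89). A GC index of the libraries, the genes lowest in GC minus those highest in GC, had r = -0.73 with Slc2a4, -0.78 with Akt1 and -0.59 with Akt2. With this index as a covariate, a fit also added once the values had been seen, the differences from control ran from -0.05 to 0.09 for Slc2a4, from 0.00 to 0.23 for Akt1 and from 0.08 to 0.29 for Akt2. The Akt1 difference in the paternal exercised group went from -0.24 to 0.02. The GC index was 0.29, 0.35 and 0.31 in the paternal exercised libraries and -0.07, -0.88 and 0.21 in the controls. Such a fit can therefore also take out a difference between these groups, and the index and the group cannot be told apart.

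**Figure D4:**
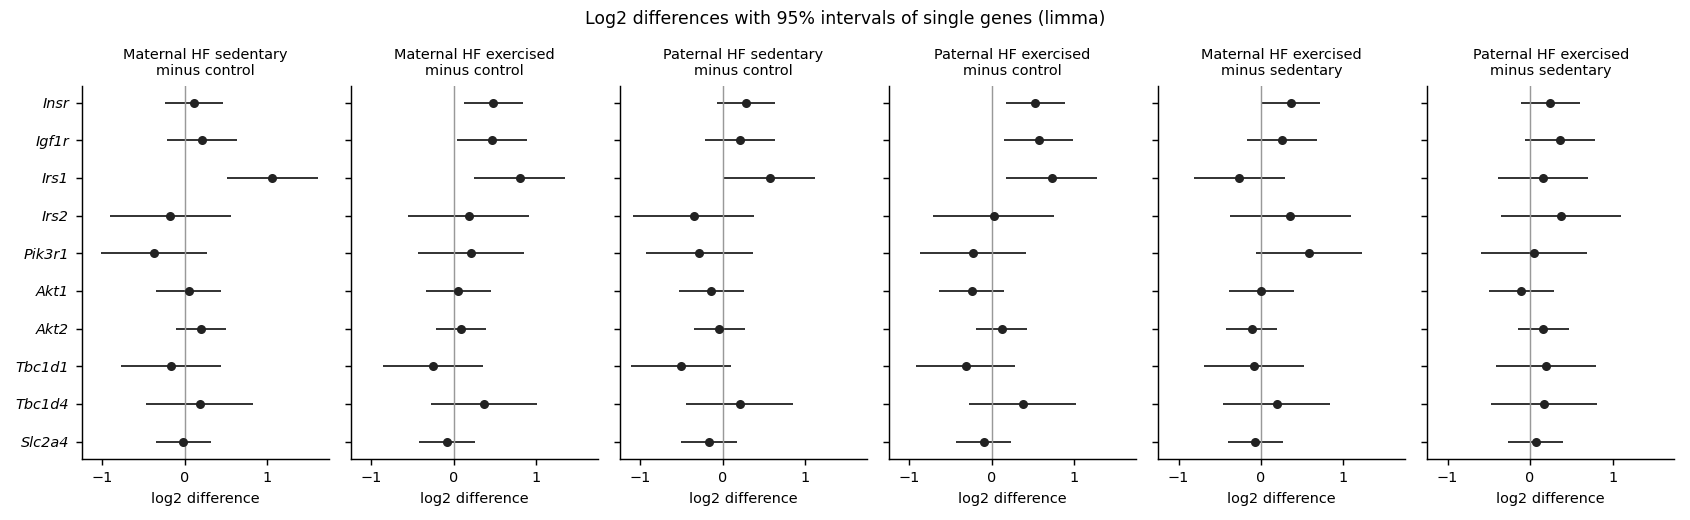
Log2 difference (horizontal axes) of each gene (rows) in 6 comparisons, with 95% intervals of single genes from limma. The interval of Irs1 lies right of 0 in all 4 comparisons with the shared controls, those of Slc2a4 include 0 in all 6, and no gene passed after adjustment over all genes.

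Taking the 10 genes as a list, the median log2 difference from control was 0.08 in the maternal sedentary, 0.20 in the maternal exercised, -0.09 in the paternal sedentary and 0.07 in the paternal exercised group, against 0.01, 0.02, 0.01 and -0.00 over all genes tested. Of the 10 members, Irs1 alone was higher than control without overlap in the maternal sedentary group (all genes 4.44%), and Insr alone in the maternal exercised group (5.54%). In the paternal sedentary group Irs1 and Insr were higher (2.64%) and Tbc1d1 lower (3.05%). In the paternal exercised group Irs1 and Insr were higher, 2 of 10 beside 11.7% of all genes. Between exercised and sedentary groups no member separated, while 8.56% of all genes were higher and 8.61% lower without overlap for mothers and 5.11% and 5.5% for fathers. For maternal against paternal sedentary, where 3.99% were higher and 3.19% lower, none separated either.

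Without the 4 libraries high in hepatocyte markers the comparisons rest on 2 controls, 1 maternal sedentary and 2 paternal sedentary libraries. The Irs1 difference from control was then 0.91 in the maternal exercised, 0.55 in the paternal sedentary and 0.83 in the paternal exercised group. Insr was at 0.24 (maternal sedentary), 0.42 (maternal exercised), 0.12 (paternal sedentary) and 0.46 (paternal exercised), and Igf1r between 0.27 and 0.61. Irs2, which is highest in control library 2, was at 0.52 in the maternal exercised and 0.36 in the paternal exercised group. Tbc1d1 was at -0.50 in the maternal sedentary and -0.67 in the paternal sedentary group, and Tbc1d4 between 0.12 and 0.40. Akt1 was at 0.15 in the paternal sedentary and -0.03 in the paternal exercised group, Akt2 between 0.10 and 0.19, Pik3r1 between -0.27 and 0.17 and Slc2a4 between -0.06 and 0.06. Without only the 2 libraries with the fewest genes detected, Irs1 was at 0.99 in the maternal sedentary and 0.68 in the paternal sedentary group. None of these members passed in either fit.

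Of 101 other genes of the pathway, in 7 lists chosen by role, 99 were tested. Socs1, a suppressor of receptor signalling, averaged 5.34 normalized counts and Irs4 had none. None of the 99 passed with limma in any comparison. DESeq2 called 2 of them, each in 1 comparison. The first was Gsk3b, a kinase that AKT switches off. The second was Grb7, an adaptor of receptor tyrosine kinases, lower in maternal exercised than sedentary (adjusted p = 0.0390). Grb7 had 103 and 27.0 counts in the 2 maternal sedentary libraries richest in hepatocyte markers and at most 7.13 in every other.

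Below AKT, none of 21 AKT substrates, mTOR and FoxO genes passed. In the paternal exercised group 7 of them had an unadjusted p under 0.05 against control, all higher, and 7 were higher than control without overlap (all genes 13.7% and 11.7%). Their median was 0.23 against -0.00 over all genes. In the maternal exercised group, compared with the same controls, 6 of 21 were higher at an unadjusted p under 0.05 (all genes 8.76%), with a median of 0.18, while 4 were higher and 1 lower without overlap (5.54% and 4.72%). Between maternal exercised and maternal sedentary 2 were higher and 6 lower without overlap (8.56% and 8.61%), with a median of 0.13.

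Gsk3b held 1977, 1729 and 2164 normalized counts in the controls and 2882, 4326 and 3077 in the paternal exercised libraries. The log2 difference was 0.79 ± 0.19 (limma adjusted p = 0.284, DESeq2 adjusted p = 0.0348), and 0.48 with the length index as a covariate. Tsc1, which restrains mTOR, was 0.40 ± 0.13 higher, the AKT phosphatase gene Phlpp1 0.41 ± 0.13 and the transcription factor gene Foxo3 0.60 ± 0.22 higher, none of them passing (limma adjusted p 0.284 to 0.309). Exercised minus sedentary in the paternal study was 0.37 for Tsc1 and 0.57 for Gsk3b, again without overlap and without passing (limma adjusted p = 0.991 for both).

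Among 12 genes of phosphoinositide 3-kinase and the phosphatases that oppose it, values lay in both directions. In the paternal exercised group 6 had an unadjusted limma p under 0.05 against control, 4 higher and 2 lower (all genes 13.7%). In the maternal exercised group, against the same controls, 4 did, 3 higher and 1 lower (8.76%). Without overlap, 3 were higher and 2 lower in the paternal exercised group (all genes 11.7% and 8.7%). In the maternal exercised group 2 were lower without overlap (4.72%). Pik3cd, a catalytic subunit best known in leukocytes, was lower than control without overlap in the maternal exercised (-0.59 ± 0.22) and paternal exercised (-0.78 ± 0.22) groups. Pdpk1, the kinase that activates AKT, was 0.53 ± 0.20 higher in maternal exercised than sedentary libraries, and 0.03 with the length index as a covariate. With it Pik3cd was -0.28 and -0.42 in the maternal and paternal exercised groups. Neither gene passed in these comparisons (limma adjusted p 0.284 to 0.566).

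Trib3, a pseudokinase reported to bind AKT, was the pathway gene with the smallest p between maternal sedentary and control among those without overlap. It held 58.7, 59.8 and 54.0 normalized counts in the maternal sedentary libraries and 38.6, 34.3 and 37.4 in the controls, a log2 difference of 0.63 ± 0.21 (limma adjusted p = 1.00). The maternal exercised libraries, at 45.8, 40.1 and 40.6, lay between these groups without touching either. Without overlap, 4.44% of all genes were higher than control in the maternal sedentary and 5.54% in the maternal exercised group. Between maternal exercised and maternal sedentary 8.61% were lower. Trib3 held 36.5, 41.2 and 54.1 in the paternal sedentary and 30.6, 40.0 and 42.5 in the paternal exercised libraries. Irs3, a further substrate gene, was near the limit of testing and averaged 21.7 in the maternal exercised and 8.08 in the control libraries.

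Of 21 GLUT4 traffic genes, 2 reached an unadjusted p under 0.05 against control in the paternal exercised group (all genes 13.7%) and 1 in each of the maternal sedentary (4.04%), maternal exercised (8.76%) and paternal sedentary (2.87%) groups, and their medians lay between -0.02 and 0.07. Rab8a, a Rab on which TBC1D4 is known to act, was 0.37 ± 0.13 higher in paternal exercised than paternal sedentary libraries (limma adjusted p = 0.991). It was also 0.35 ± 0.13 higher in maternal than paternal sedentary libraries (limma adjusted p = 0.723). Neither pair overlapped (all genes 5.11% and 3.99% in the higher direction). In the maternal study Rab8a held 211, 221 and 221 (exercised) and 241, 214 and 236 (sedentary). Of 12 glucose handling genes, 3 reached an unadjusted p under 0.05 against control in the maternal exercised group, 1 higher and 2 lower. In the paternal exercised group 2 did, both higher, and none did in either sedentary group. Between maternal exercised and maternal sedentary 2 of the 12 did, both lower (all genes 9.54%). Among these genes Gys1, muscle glycogen synthase, had 11930 ± 1058 counts in maternal exercised and 14352 ± 541 in maternal sedentary libraries, without overlap. The log2 difference was -0.27 ± 0.12 (limma adjusted p = 0.516), and -0.09 with the length index as a covariate. The 9 AMPK genes had medians of -0.10, -0.03, -0.14 and -0.10 in the maternal sedentary, maternal exercised, paternal sedentary and paternal exercised comparison with control. The 8 genes of IGF ligands and binding proteins had -0.07, -0.07, -0.12 and -0.34 in the same order, with 7 of 8 means below control in the last. Igf2 was lower than control in each maternal sedentary library (442, 496 and 452 against 582, 662 and 514), as were 3.58% of all genes without overlap. Its log2 difference was -0.33, with a 95% interval that included 0 (-0.77 to 0.10).

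**Figure D5:**
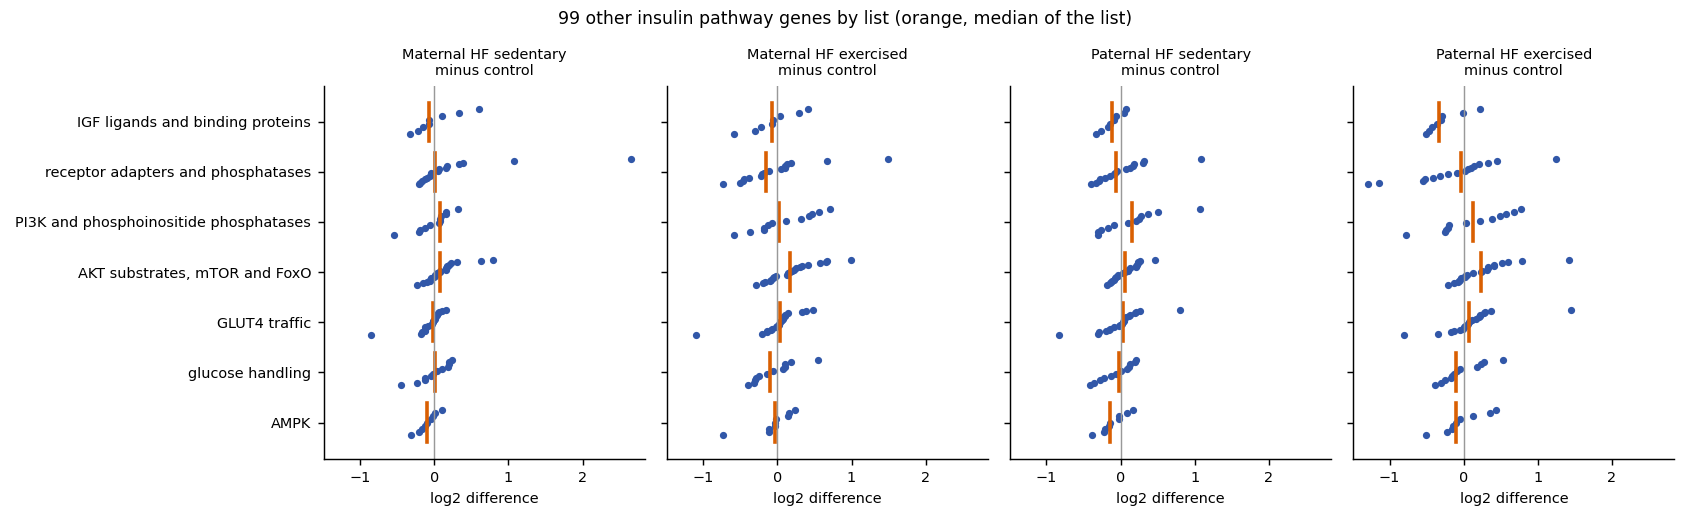
Log2 difference from control (horizontal axes) of 99 other pathway genes by list (rows) in the 4 groups from high-fat parents; each point is a gene and the orange bar the median of its list. The AKT substrates, mTOR and FoxO list has its highest median, 0.23, in the paternal exercised group, and all 4 panels use the same 3 control libraries.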

How the data were processed

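Quadriceps RNA was depleted of ribosomal RNA and sequenced with a stranded kit as 100-bp single-end reads, per the labels' protocols. The submitters' processing notes name STAR 2.5.2b, featureCounts 1.5.2, DESeq2 1.11.8 and the build mm10. The deposited signal values are normalized counts, reads divided by a size factor for each library. In every column 100% of the deposited values were whole multiples of 1 step within 0.001, which recovered the reads.

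Of 50686 genes, 50462 (99.6%) matched GENCODE M21. The test was limma 3.58.1 with trend on log2(normalized count + 1), all 15 libraries in 1 fit, for the 13499 genes with a mean of at least 10, the other 37187 being untested, with Benjamini-Hochberg adjustment at 0.05. Differences are on this log2 scale, which understates those of low genes. The count tests on recovered reads were edgeR 4.0.16, which called 0 genes in every comparison, and DESeq2 1.42.0, which called 18 (maternal sedentary against control), 60 (maternal exercised against sedentary), 67 (paternal exercised against control) and 1 (paternal exercised against sedentary). Fits were tested on simulated data. Replicate numbers follow accession order and pair nothing.

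The members and lists were chosen with earlier results of these data known. All 10 members are named. Pathway genes are named where they passed, or as up to 6 a comparison with the smallest p among those without overlap, and for 4 members the 3 genes of highest Pearson r. Apart from 1 gene not reported here, those that this rule names and the text omits are left out for length. Grb7, Rab8a, Igf2 and Irs3 fall under that rule in the comparisons given or in another, and Socs1 and Irs4 are named as the untested ones. Irs1 and Irs2 are each overlapped on the opposite strand by a gene of mean 0 and 8.62. Promoters are from RefSeq (GRCm38.p6).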

Additional observations from a re-analysis of the deposited data

How the results depend on the processing

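The counts of called members and pathway genes kept their values in 321 of 324 alternatives. With DESeq2, 1 member (Irs1, maternal sedentary against control) and 2 pathway genes (Gsk3b and Grb7) were called in place of 0, and with the title code as a covariate 1 pathway gene (Eif4ebp1, paternal exercised against sedentary) was called. Of 80 log2 differences of members, 34 kept their sign in all alternatives run and 46 turned in at least 1. The largest that turned was Tbc1d1 in paternal sedentary against control (-0.51, and 0.16 with the title code), and the cause was not tested. The title code could not be fitted for maternal sedentary or maternal exercised against control, nor for maternal against paternal sedentary. Scaling to library totals put the median of all genes at 0.11 (maternal exercised against sedentary), 0.10 (paternal sedentary against control), -0.11 (maternal against paternal sedentary) and 0.19 (difference of the exercise effects). Leaving out 1 library at a time, the Irs1 difference in maternal sedentary against control ran from 0.88 to 1.19. No paired analysis was possible because the labels give no replicate numbers. With 3 mice a group, the printed intervals give the sizes of difference that could have been missed.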
